A study of Mus musculus with 2 samples.

Results

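The genes described here store iron, release it from heme or carry it across membranes: Fth1, Ftl1, Hmox1, Slc40a1, Tfrc, Slc11a1 and Slc11a2. They were chosen by symbol, not by level, and are 7 of the 27998 genes in the count tables, each with a single gene ID. They were read in 2131 medial and 2308 lateral cells, 4439 in all, a cell being a barcode with at least 2400 UMIs (unique molecular identifiers, 1 per captured RNA molecule) and at most 10% mitochondrial UMIs.

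Microglia, the resident macrophages of the brain, had been sorted by flow cytometry from 2 stretches of the corpus callosum, medial and lateral, and each stretch gave 1 droplet library. All mice were labelled as strain C57Bl6 and genotype CX3CR1, and all had received cuprizone, which binds copper, destroys oligodendrocytes and so removes myelin, for 4 weeks. No library without cuprizone was analysed here, and the allele meant by CX3CR1, the sorting gate, the age of the mice and the number pooled in a library were not stated in the labels. C57BL/6 mice are known to carry a loss-of-function allele of Slc11a1, which limits what its transcript says about transport.

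As background, iron enters cells on transferrin through the transferrin receptor, or in macrophages with engulfed cells and myelin, whose heme is opened by heme oxygenase. Iron that is not used is put into ferritin, a hollow shell of heavy and light chains, or leaves the cell through ferroportin. Oligodendrocytes are rich in iron, and microglia that clear them take up part of it. Much of this control works on RNA already made: when iron is scarce, the iron regulatory proteins bind hairpins called iron-responsive elements, which blocks translation of ferritin and ferroportin and protects the mRNA of the transferrin receptor. Transcript counts therefore do not show the level of these proteins.

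The hairpins that a search of 1 transcript per gene found in 4 of the genes are given here. UMIs were counted per gene, so they do not show whether the RNA in a cell carried the hairpin. The hairpins were searched on the sense strand of the GENCODE M21 transcripts (GRCm38, which is mm10). The pattern was the loop CAGTGN between arms of 5 paired bases, G-U pairs allowed, with a C just before the stem. The search did not check that this C was unpaired. The loop is in capitals. Fth1 holds 1 in its 5' UTR, in exon 1 (chr19:9982732-9982760, plus strand). The element of Ftl1 lies in the 5' UTR too, in exon 1 (chr7:45459779-45459807, minus strand), and shares 26 of 29 bases with that of Fth1. In Slc40a1 it is again in the 5' UTR and exon 1 (chr1:45925465-45925493, minus strand), with 13 of 29 bases shared with either ferritin gene. In Tfrc the search found 4, all in the 3' UTR in exon 19 on the plus strand, at chr16:32631219-32631247, chr16:32631598-32631626, chr16:32631663-32631691 and chr16:32631710-32631738.
Fth1: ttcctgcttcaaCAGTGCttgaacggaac
Ftl1: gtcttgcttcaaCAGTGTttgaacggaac
Slc40a1: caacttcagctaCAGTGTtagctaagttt
Tfrc, element 1: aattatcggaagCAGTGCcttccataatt
Tfrc, element 2: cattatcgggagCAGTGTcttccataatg
Tfrc, element 3: ctatatcggagaCAGTGAtctccatatgt
Tfrc, element 4: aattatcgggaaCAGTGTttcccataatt
Of 21901 protein-coding genes, 1.24% held such an element with that C in their longest transcript, and 5 genes held 4 or more elements with or without it. The members were searched in 1 set transcript each, whether or not it was the longest. The transcripts searched for Hmox1, Slc11a1 and Slc11a2 held none with that C, which says only that these letters are not in those transcripts. Hairpins of looser form or in other transcripts of these genes are not covered. These genes lie at chr8:75093621-75100589 (Hmox1, plus strand), chr1:74375195-74386062 (Slc11a1, plus strand) and chr15:100387898-100425072 (Slc11a2, minus strand).

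The libraries were of like depth, with 23442512 UMIs in medial and 23047682 in lateral cells and medians of 10732 and 9694 UMIs per cell. All 10 microglial markers were present, summing to 27044 CPM (UMIs scaled to a library total of 1000000) in medial and 27730 in lateral cells. Of the marker lists of other cells, the 7 endothelial genes summed to 117 CPM in medial and 100.5 CPM in lateral cells, nearly all from Pecam1 and Flt1, with Ly6c1 and Slco1a4 at 0 in both. The oligodendrocyte list summed to 822 and 725 CPM, mostly from Trf, and without it to 71.5 and 71.2 CPM, mostly from Cnp, Mag and Mbp, with Mog and Mobp at 0. The 6 astrocyte genes summed to 43.9 CPM in medial and 46.7 CPM in lateral cells, mostly from Slc1a3, with Aqp4 at 0, and the 7 border macrophage genes to 46.8 and 35.8 CPM, mostly from Pf4 and Ms4a7, with Cd163 and Lyve1 at 0. Neuron, monocyte and neutrophil lists each summed to at most 4.38 CPM and the 6 erythroid markers to 0.128 and 0.390 CPM, with Hba-a1, Hba-a2 and Alas2 at 0. Several of these sums exceed the levels of the rarest members, and their part in the results was not tested. 7 cell barcodes occurred in both libraries. A single library per region allows no test, and no p-value is given. Every interval in parentheses is a 95% interval that covers counting error only, not differences between mice, dissections or library preparations. Intervals of CPM and of ratios also leave out the spread between cells, which makes them too narrow where that spread exceeds counting error.

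The storage genes stood far above the transport genes. Fth1, the heavy chain that oxidises iron as it enters the shell, was at 10409 CPM (10368 to 10450) in medial and 9813 CPM (9773 to 9854) in lateral cells, the 6th and 7th most abundant gene there. Ftl1, the light chain that helps the iron core to form, was at 10578 CPM (10537 to 10620) in medial and 12131 CPM (12086 to 12176) in lateral cells, the 5th most abundant in both. Together the chains took 2.10% of all medial and 2.19% of all lateral UMIs, and every cell held UMIs of both. Since reads come from 3' ends and each molecule is counted once, these levels are not scaled by transcript length.

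The other genes were lower by orders of magnitude. Slc11a1, a metal transporter of the phagosome membrane, was at 111 CPM (106 to 115) in medial and 114 CPM (109 to 118) in lateral cells. Hmox1, the inducible heme oxygenase that frees iron from heme, was at 78.0 CPM (74.5 to 81.7) and 71.3 CPM (67.9 to 74.8) in medial and lateral cells. Slc11a2, which moves ferrous iron out of endosomes, was at 33.7 CPM (31.3 to 36.1) in medial and 31.8 CPM (29.6 to 34.2) in lateral cells. The exporter gene Slc40a1 (ferroportin) was at 13.5 CPM (12.1 to 15.1) in medial and 12.97 CPM (11.5 to 14.5) in lateral cells. The uptake receptor gene Tfrc was lowest, at 7.51 CPM (6.44 to 8.70) in medial and 8.85 CPM (7.68 to 10.2) in lateral cells. The order from Slc11a1 down to Tfrc was the same in both libraries, with no overlap of neighbouring intervals within a library.

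**Figure D1:**
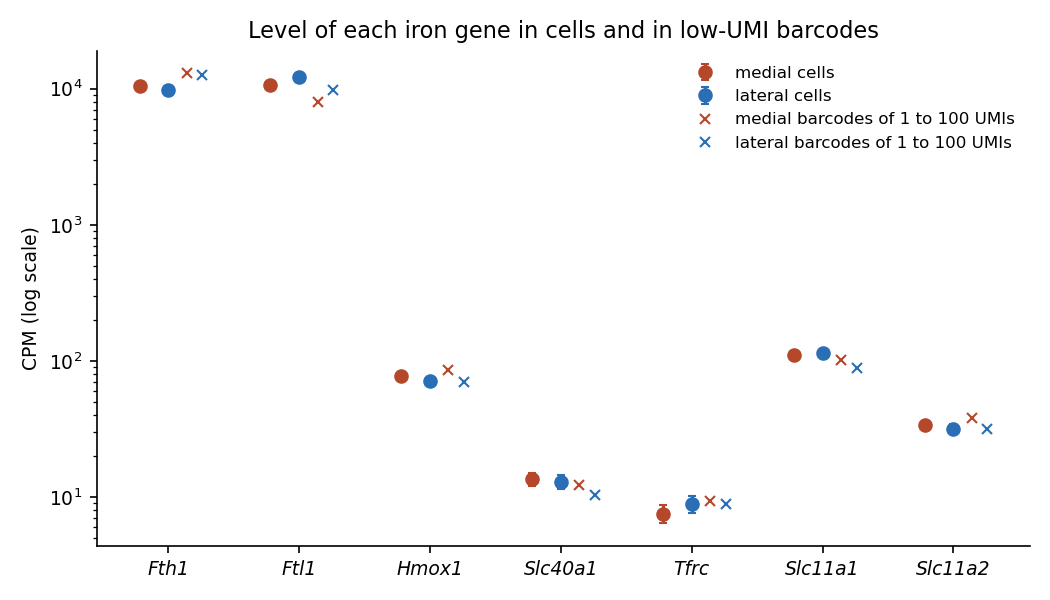
Level of the 7 iron genes in CPM on a log axis, in medial and lateral cells (points, with exact Poisson 95% intervals, which are smaller than the point for high genes) and in barcodes of at most 100 UMIs (crosses). The ferritin genes lie near 10000 CPM and the other 5 genes between 7.51 and 114 CPM, and the crosses lie close to the cells.

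Barcodes with at most 100 UMIs, taken to hold free RNA rather than cells, carried the same genes. Fth1 was at 12977 CPM in medial and 12570 CPM in lateral such barcodes, above its cells, whereas Ftl1 was at 8032 and 9729 CPM, below its cells. The remaining genes were there at 0.786 to 1.24 times their level in the cells of the same library. In each of 9 clusters of the cells, all 10 microglial markers had UMIs, summing to between 24513 and 32842 CPM, and no cell class that should lack the members was defined, so how much of the UMIs in a cell came from free RNA was not tested.

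Between regions, the ferritin chains went in opposite directions. The log2 ratio of medial over lateral CPM was 0.08 for Fth1 (0.08 to 0.09) and -0.20 for Ftl1 (-0.21 to -0.19), so that Ftl1 was lower and Fth1 slightly higher in medial cells. Hmox1 was higher in medial cells, with 0.13 (0.03 to 0.23), but with each cell thinned to 2400 UMIs its interval included equality (0.19, -0.02 to 0.40). For Slc40a1, at 0.06 (-0.17 to 0.29), Tfrc, at -0.24 (-0.54 to 0.06), Slc11a1, at -0.04 (-0.12 to 0.04), and Slc11a2, at 0.08 (-0.07 to 0.23), the interval included equal levels, which does not show that the regions were alike. Without the 5% of cells with most UMIs the interval of Tfrc lay just below equality (-0.33, -0.65 to -0.004). These are small differences. No member reached a ratio of 1.2 in either direction, against 7.42% of 9843 genes with at least 100 UMIs that were at least 1.2-fold higher in medial cells and 7.49% that were as much lower. The whole interval lay above equality for 2 members and for 11.1% of those genes, and below it for 1 member and 18.2% of the genes. The median of all these genes was -0.04, and 95% of them lay between -0.40 and 0.47.

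The balance of the chains shifted more than their sum. There were 0.984 Fth1 UMIs per Ftl1 UMI in medial and 0.809 in lateral cells, a log2 difference of 0.28 (0.27 to 0.29), while the sum differed by -0.06 (-0.07 to -0.06). Counted UMIs of Fth1 outnumbered those of Ftl1 in 50.2% of medial cells, against 26.5% of lateral cells. The median of the per-cell log2 ratio of Fth1 over Ftl1 was 0.01 in medial and -0.31 in lateral cells, and the central 90% of cells ran from -0.85 to 1.01 in medial and from -1.08 to 0.67 in lateral cells. The distributions thus overlapped widely. The share of ferritin in a cell's UMIs had a median of 2.01% in medial and 2.13% in lateral cells, with 90% of cells between 1.18% and 3.38% and between 1.19% and 3.70%. In the barcodes of at most 100 UMIs, Ftl1 was also lower and Fth1 higher in the medial library.

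**Figure D2:**
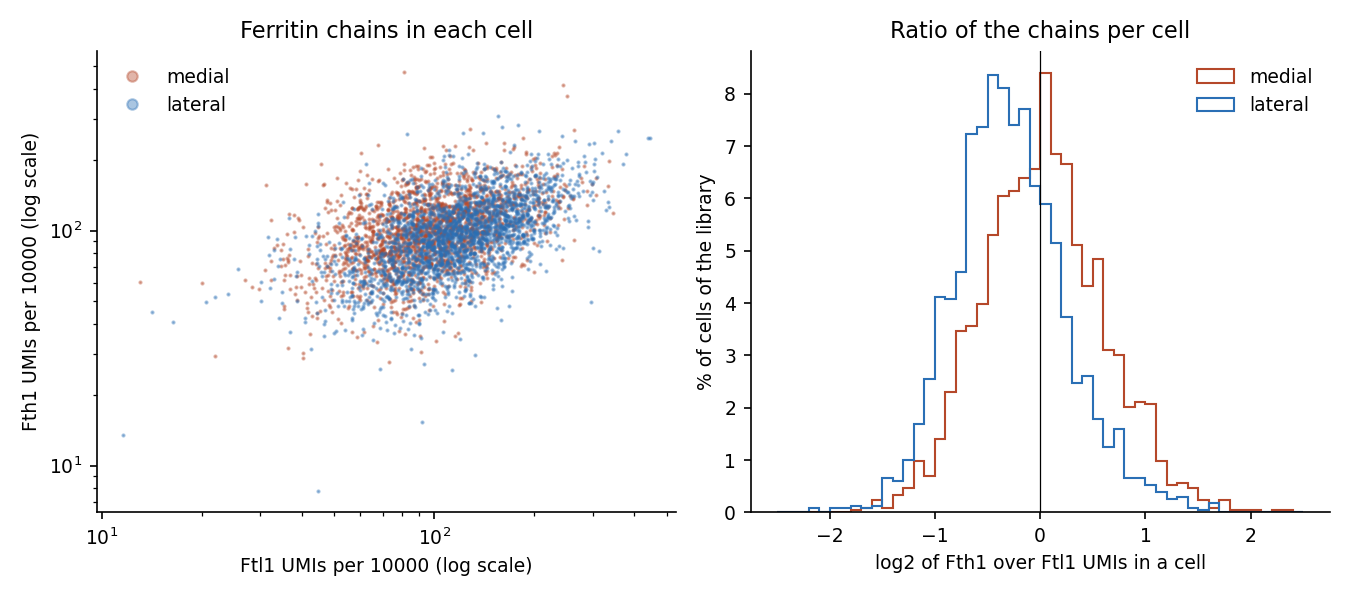
Left, UMIs of Fth1 against Ftl1 per 10000 UMIs in each cell, both on log axes, 2131 medial and 2308 lateral cells. Right, share of each library's cells by the log2 ratio of Fth1 over Ftl1 UMIs; the medial distribution lies to the right of the lateral one (medians 0.01 and -0.31) and overlaps it.

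Reads of Ftl1 are not wholly its own. Of the 57-base windows of its transcript, the stated read length, 76.4% also occur in transcripts of 10 other genes, 1 of which has a row in the count table. That row is named Gm10116 there (ENSMUSG00000062382, which GENCODE M21 calls Ftl1-ps1, a copy of Ftl1), and shares 70.9% of the windows. It stood at 633 CPM in medial and 535 CPM in lateral cells, 5.99% and 4.41% of Ftl1, and was higher in medial cells by 0.24 on the log2 scale (0.21 to 0.28), opposite to Ftl1. With both rows added, the level was 11211 CPM in medial and 12666 CPM in lateral cells, a log2 ratio of -0.18 (-0.18 to -0.17), so the sum was lower in medial cells too. How reads from shared windows were assigned, or whether they were dropped, was not tested. The absolute count of Ftl1, and of Fth1 per Ftl1, may therefore be off. Fth1 shares 5.84% of its windows with 1 gene that has no row, and Hmox1, Slc40a1 and Tfrc share none.

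The estimated spread between cells exceeded counting error in both libraries for the ferritin chains and Slc11a1. For Hmox1 the variance in thinned cells was 1.15 times the mean in medial but only 1.05 times in lateral cells, where counting alone makes them equal. No interval was computed for this excess, so it is not established for Hmox1 in lateral cells. At their own depth, 57.5% of medial cells (55.4 to 59.6) and 54.0% of lateral cells (52.0 to 56.1) held a UMI of Slc11a1. For Hmox1 these shares were 48.6% (46.5 to 50.8) in medial and 42.3% (40.3 to 44.4) in lateral cells. Medial cells were deeper, and with each cell thinned to 2400 UMIs the shares were 22.8% in medial and 22.5% in lateral cells for Slc11a1, and 15.3% and 14.0% for Hmox1, with overlapping intervals. Slc11a2 was seen in 28.9% of medial and 26.0% of lateral cells, Tfrc in 7.32% and 8.19%, and Slc40a1 in 277 medial and 268 lateral cells. A cell without a UMI may still express the gene at such levels. The spread between cells beyond counting, as a coefficient of variation in thinned cells, was 32.9% in medial and 34.8% in lateral cells for Fth1 and 40.1% and 39.7% for Ftl1. Genes of like abundance had a median of 34.5% in medial and 37.5% in lateral cells (25 and 24 genes). For Slc11a1 it was 72.0% in medial and 75.8% in lateral cells, and for Hmox1 91.3% and 56.0%, against medians of 38.4% and 37.3% over 2247 and 2274 genes with 0.1 to 0.5 UMIs per thinned cell.

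To see in which microglia the genes were high, cells of both libraries were clustered without the members, the other iron genes, mitochondrial and ribosomal protein genes. Of 9 clusters, the 8 with at least 50 cells in each library are described, by number and leading genes. Cluster 1 was led by Saa3, Fn1, Batf and Crybb1, cluster 2 by Slc39a1, Abhd2, Actb and Notch2, cluster 3 by the antigen presentation genes H2-Eb1, H2-Aa and Cd74 with the chemokine gene Cxcl9, and cluster 5 by Cd5l, Ms4a7, Gpnmb and Qpct. Cluster 7 was led by the immediate early genes Fos, Egr1 and Jun with Gadd45g. Cycling genes led the rest: Ccnb2, Cdkn3, Knstrn and Cenpa in cluster 4, Ung, Hells and Timeless in cluster 8, and Hist1h2ap, Prc1, Hist1h1b and Nusap1 in cluster 9.

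By its point value, Slc11a1, the phagosomal transporter gene, had the widest span over clusters among the members. In cluster 3 it reached 230 CPM (216 to 245) in 424 medial cells and 225 CPM (207 to 244) in 256 lateral cells. All other medial cells together stood at 84.9 CPM and all other lateral cells at 100.2 CPM. Cluster 7 came next, with 127 CPM (115 to 141) in medial and 162 CPM (146 to 180) in lateral cells, and cluster 5 was lowest, with 58.1 CPM (47.3 to 70.6) and 77.5 CPM (67.6 to 88.4). The highest cluster thus exceeded the lowest 3.36-fold by the mean of the libraries. Tfrc came next at 2.62-fold, and at Leiden resolution 0.3 the spans were 2.80 for Slc11a1 and 2.58 for Tfrc. The CPM intervals of Tfrc in its highest and lowest clusters overlapped in both libraries, so its place below Slc11a1 is not settled. At least 1.5-fold higher in cluster 3 than in other cells in both libraries were 2.02% of genes, Slc11a1 alone among the members. As much lower in cluster 5 were 8.13% of genes, again with Slc11a1 as the one member.

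The ferritin chains peaked in different clusters. Fth1 was highest in cluster 3, at 12901 CPM (12792 to 13011) in medial and 12048 CPM (11913 to 12184) in lateral cells. Ftl1 was highest in cluster 5, at 13672 CPM (13498 to 13848) in medial and 13634 CPM (13499 to 13771) in lateral cells. Both were lowest in cluster 9, where Fth1 stood at 8780 CPM in medial and 8308 CPM in lateral cells and Ftl1 at 8339 and 9358 CPM. The span from lowest to highest cluster was 1.46-fold for Fth1 and 1.54-fold for Ftl1, with Hmox1 between them at 1.48-fold. The 4 other members had wider point values, but counting error widens the span of rare genes such as Slc40a1 and Tfrc. In each alternative clustering Slc11a2 was narrower than a ferritin chain. It spanned 1.42 against 1.52 for Fth1 at Leiden resolution 0.3 and 1.83 against 1.87 for Ftl1 at 1.0. With 1000 variable genes it spanned 1.546 against 1.564 for Fth1. Ferritin of both chains ranged from 1.71% of medial and 1.77% of lateral UMIs in cluster 9 to 2.43% in medial cells of cluster 5 and 2.46% in lateral cells of cluster 3.

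Tfrc had another order. By the mean of the libraries it was highest in the cycling clusters 4, at 14.7 CPM (7.05 to 27.0) in medial and 11.4 CPM (5.91 to 20.0) in lateral cells, and 9, at 10.99 CPM (7.18 to 16.1) and 13.4 CPM (9.34 to 18.6), but these neighbours in the order overlap widely. Cluster 8, cycling too, held 5.59 CPM (2.25 to 11.5) in medial and 13.6 CPM (8.72 to 20.2) in lateral cells. Cluster 3 was lowest, with 4.84 CPM (2.95 to 7.47) in medial and 5.15 CPM (2.74 to 8.81) in lateral cells, from 20 and 13 UMIs. Tfrc was at least 1.5-fold higher in cluster 9 than in other cells of both libraries, as were 12.2% of genes, and as much lower in cluster 3, as were 8.77%. For cluster 9 the log2 ratio was 0.63 (-0.03 to 1.235) in medial cells, an interval that includes equality, and 0.70 (0.13 to 1.23) in lateral cells. Cells of cluster 9 were deep, the median medial cell holding 16224 and the median lateral cell 13680.5 UMIs, and the part of depth in this order was not tested across clusters.

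Smaller contrasts were seen for the other genes. Slc11a2 was highest in cluster 3, with 46.7 CPM (40.3 to 53.7) in medial and 38.4 CPM (31.2 to 46.9) in lateral cells, and spanned 1.76-fold. Slc40a1 spanned 1.97-fold and was lower in cluster 7, at 8.86 CPM (5.84 to 12.9) in medial and 7.71 CPM (4.49 to 12.3) in lateral cells, by at least 1.5-fold against other cells of both libraries, as were 4.4% of genes. For Hmox1, cluster 4 stood at 109 CPM (85.5 to 137) in medial and 79.1 CPM (63.0 to 98.1) in lateral cells, and its order over clusters differed between the libraries. Trf, which encodes the iron carrier transferrin and is not a member, followed Slc11a1 in being highest in cluster 3, at 1327 CPM (1292 to 1362) in medial and 1015 CPM (976 to 1056) in lateral cells.

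**Figure D3:**
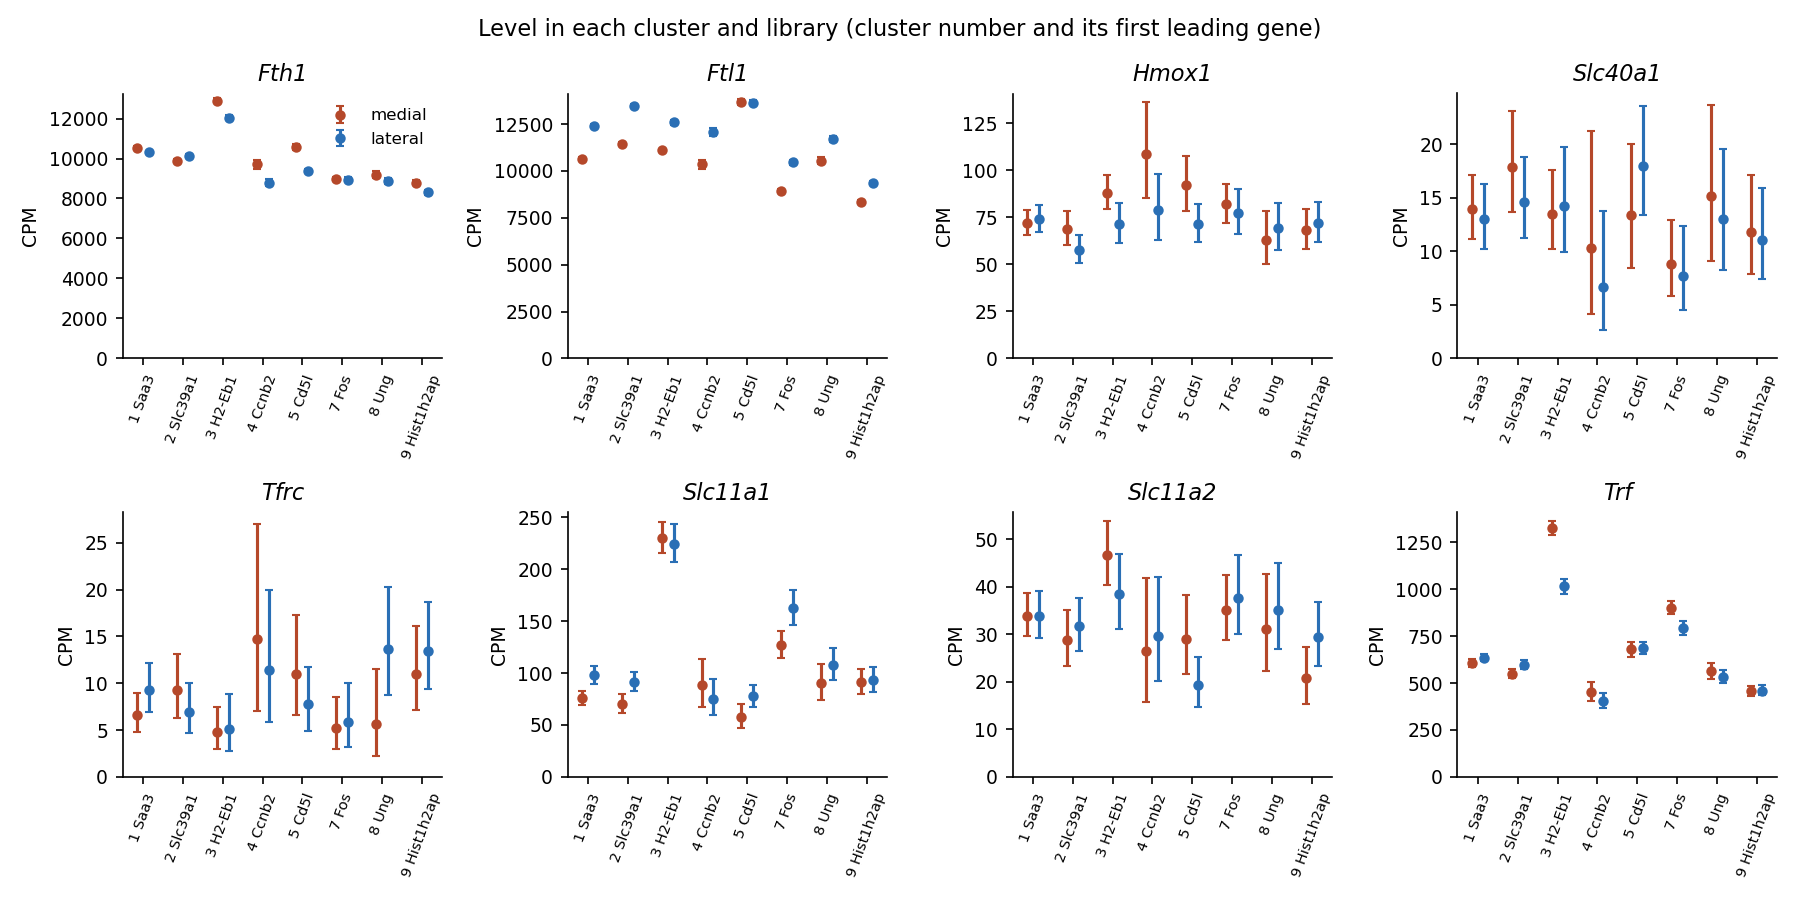
CPM of the 7 genes and of Trf in each of 8 clusters, medial and lateral cells side by side, with exact Poisson 95% intervals; the axis gives the cluster number and its first leading gene. Slc11a1 and Trf stand highest in cluster 3, Ftl1 in cluster 5, and the intervals of Tfrc and Slc40a1 are wide.

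Within clusters, the regional differences of ferritin kept their direction in most. Ftl1 was lower in medial cells in 7 of 8 clusters, each with its interval below equality, and the log2 ratios ran from -0.24 to 0.00, the last in cluster 5. Fth1 was higher in medial cells in 7 of 8 clusters, 6 with the interval above equality, and was lower in cluster 2 (-0.03, -0.06 to -0.01). For both chains the spread between cells exceeded counting error, so these intervals are too narrow and do not settle the small ratios. Fth1 per Ftl1 was higher in medial cells in all 8 clusters, from 0.774 against 0.687 in cluster 5 to 1.16 against 0.957 in cluster 3. Slc11a1 varied between clusters. It was lower in medial cells in 6 of 8 clusters and below equality by its interval in 4, with -0.36 (-0.54 to -0.19) in cluster 1, -0.39 (-0.63 to -0.15) in cluster 2, -0.42 (-0.77 to -0.07) in cluster 5 and -0.35 (-0.56 to -0.14) in cluster 7. Cluster 3, where the gene was highest, showed 0.04 (-0.12 to 0.19). Clusters 4, 8 and 9 gave 0.23 (-0.28 to 0.73), -0.25 (-0.60 to 0.09) and -0.03 (-0.30 to 0.24). Over clusters weighing alike the ratio of Slc11a1 was -0.19, against -0.04 over all cells. Clusters 3 and 7, where the gene was highest, held 19.9% and 11.7% of medial cells, against 11.1% and 8.41% of lateral cells. The part of these shares in the ratio over all cells was not tested. Hmox1 was higher in medial cells in 5 of 8 clusters, with intervals above equality in cluster 3 (0.30, 0.04 to 0.56) and cluster 5 (0.37, 0.06 to 0.68).

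Immediate early genes, which can rise when tissue is dissociated, made up 0.934% of medial and 0.736% of lateral UMIs, so the regions were also compared within 4 ranges of this share with the same limits in both libraries. The log2 ratio of Ftl1 was -0.01 (-0.02 to 0.01) in the lowest range and -0.18, -0.26 and -0.18 in the others. Slc11a1 was lower in medial cells in all 4 ranges, at -0.43 (-0.65 to -0.21), -0.17 (-0.35 to 0.01), -0.22 (-0.37 to -0.07) and -0.11 (-0.25 to 0.02) from the lowest range up. Fth1 was higher in medial cells in all 4, from 0.04 to 0.11. Whether dissociation contributed to any of these values was not tested.

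Levels were next followed along 10 gene programmes, comparing the 25% of each library's cells with the highest share of UMIs in a programme (its top cells) with the 25% with the lowest (its bottom cells). Members were in none of the lists, and such a set is a range of a score, not a cell type. For Slc11a1 the 3 highest ratios in both libraries were those along MHC class II, immediate early and NF-kB genes. Along the MHC class II genes it was at 177 CPM in the top and 78.1 CPM in the bottom medial cells, and at 149.96 and 90.4 CPM in lateral cells. The log2 ratios, 1.18 (1.02 to 1.35) and 0.73 (0.56 to 0.90), lay outside the range of 95% of all genes in both libraries, which reached 0.72 and 0.68. Along immediate early genes the ratios were 1.24 (1.06 to 1.41) in medial and 1.07 (0.90 to 1.23) in lateral cells, and along NF-kB and cytokine genes 0.95 (0.78 to 1.13) and 0.96 (0.80 to 1.13), inside the ranges of all genes, which reached 1.26 and 1.19, and 1.18 and 1.26. Slc11a2 was higher in the top NF-kB cells as well, by 0.67 (0.38 to 0.96) in medial and 0.72 (0.41 to 1.04) in lateral cells.

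Ferritin was lower where homeostatic genes, those of resting microglia such as P2ry12 and Tmem119, were high. Fth1 stood at 8199 CPM in the top and 12916 CPM in the bottom medial cells and at 7565 and 12713 CPM in lateral cells. For Ftl1 the values were 8343 and 13652 CPM in medial cells and 9352 and 16230 CPM in lateral cells. The log2 ratios were -0.66 and -0.75 for Fth1 and -0.71 and -0.80 for Ftl1 in medial and lateral cells, inside the range of 95% of all genes, whose lower ends were -0.78 and -0.87. Along disease-associated genes, those microglia switch on around damage, Ftl1 differed by 0.33 (0.31 to 0.35) in medial and 0.04 (0.02 to 0.05) in lateral cells, and Fth1 by 0.11 in medial and -0.10 in lateral cells. The lateral Ftl1 ratio was not stable: it was -0.07 with each cell thinned to 2400 UMIs and 0.10 with top and bottom cells taken within ranges of UMIs per cell, an alternative chosen after seeing the data. Fth1 became 0.05 in medial and -0.18 in lateral thinned cells, and 0.11 and -0.04 within the UMI ranges. Along NF-kB genes Ftl1 was lower by -0.47 in medial and -0.27 in lateral cells while Fth1 stayed within -0.03 and 0.07, so the chains parted there. They parted along immediate early genes too, with Ftl1 at -0.40 in medial and -0.23 in lateral cells and Fth1 at -0.04 and 0.03. Along MHC class II genes Ftl1 was at -0.22 and -0.28 and Fth1 at 0.15 and -0.03. All these ratios lay inside the range of 95% of all genes.

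Hmox1 was higher along several programmes, among them Nrf2 targets and disease-associated genes. Along targets of Nrf2, the oxidative stress factor that also drives Hmox1, it stood at 92.9 CPM in the top and 65.3 CPM in the bottom medial cells and at 90.1 and 56.6 CPM in lateral cells, log2 ratios of 0.51 (0.31 to 0.71) and 0.67 (0.45 to 0.89). Disease-associated genes gave 0.65 (0.45 to 0.86) in medial and 0.59 (0.38 to 0.81) in lateral cells. Along glycolysis and hypoxia genes the ratio was 0.15 (-0.05 to 0.34) in medial and 0.71 (0.49 to 0.93) in lateral cells, the highest lateral value of the gene among the 10 programmes. Lysosome genes gave 0.33 (0.14 to 0.53) in medial and 0.29 (0.08 to 0.50) in lateral cells, and homeostatic genes 0.21 (0.01 to 0.40) and 0.36 (0.16 to 0.57). Hmox1 was also lower where the mitochondrial share was high, by -0.40 in medial and -0.58 in lateral cells, and higher in deep cells, by 0.18 (-0.05 to 0.42) in medial and 0.59 (0.32 to 0.87) in lateral cells. With each cell thinned to 2400 UMIs, the Nrf2 ratio was 0.23 in medial and 0.41 in lateral cells, and the disease-associated one 0.50 and 0.32. The glycolysis and hypoxia ratio was then 0.29 in medial and 0.34 in lateral cells. In lateral cells it thus fell below the Nrf2 ratio and was no longer the highest. Within ranges of UMIs per cell, the Nrf2 ratios were 0.42 in medial and 0.45 in lateral cells and the disease-associated ones 0.42 and 0.51.

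Tfrc was higher with proliferation genes, at 10.1 CPM in the top and 4.94 CPM in the bottom medial cells and 12.4 and 6.65 CPM in lateral cells. These are log2 ratios of 1.03 (0.36 to 1.75) and 0.90 (0.31 to 1.51), inside the range of all genes, which reached 2.06 and 2.13. Along glycolysis and hypoxia genes they were 0.99 (0.30 to 1.73) in medial and 1.15 (0.49 to 1.86) in lateral cells, inside ranges that reached 1.22 and 1.18. Along immediate early genes the ratio of Tfrc was -1.10 (-1.83 to -0.40) in medial and -0.51 (-1.11 to 0.09) in lateral cells. Along NF-kB genes it was -0.82 (-1.47 to -0.20) and -0.26 (-0.92 to 0.38). Both medial ratios lay below the range of 95% of all genes, whose lower ends were -0.79 and -0.78. Depth moved with Tfrc in the lateral library, where the deepest 25% of cells exceeded the shallowest by 1.28 (0.34 to 2.39), whereas in the medial one the ratio was -0.27 (-0.93 to 0.43). Within ranges of UMIs per cell the proliferation ratios were 0.77 (0.13 to 1.43) in medial and 0.94 (0.34 to 1.57) in lateral cells. In cells thinned to 2400 UMIs, where 37 medial and 41 lateral cells held a UMI of Tfrc, the ratios were -1.26 and 0, so the relation cannot be read at that depth.

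**Figure D4:**
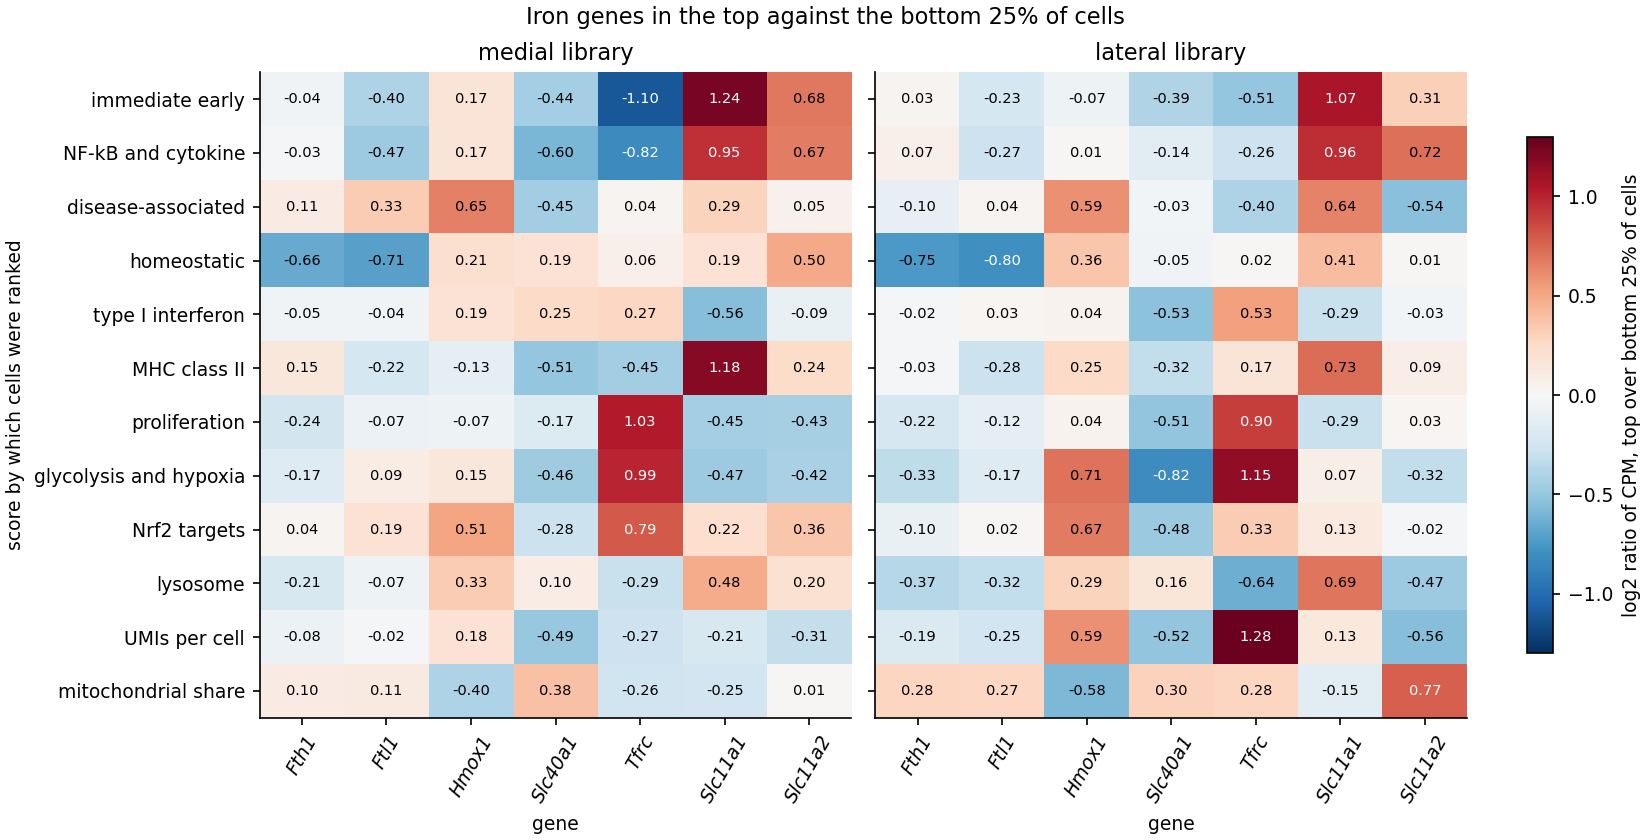
log2 ratio of CPM in the top over the bottom 25% of cells, for 10 gene programmes, UMIs per cell and mitochondrial share (rows) and the 7 genes (columns), medial library left and lateral right. Colours strong in both libraries include Slc11a1 along immediate early, NF-kB and MHC class II genes, Slc11a2 along NF-kB genes, Tfrc along proliferation and glycolysis genes, and both ferritin chains, in the other direction, along homeostatic genes.

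From cell to cell, only the ferritin chains moved visibly together. Pearson's r on log-scaled counts was 0.45 over medial and 0.56 over lateral cells for Fth1 with Ftl1, which share a library, depth and part of the UMI total. The other 20 pairs lay between -0.06 and 0.10, and in sparse counts such values say little. Among 4841 genes, the ones most like Ftl1 were its copy Gm10116 (0.66 in medial and 0.60 in lateral cells), the growth factor gene Igf1 (0.45 and 0.48) and Fth1. For Fth1 they were Ftl1, Rpl41 (0.30 and 0.35) and Gm10116 (0.28 and 0.33). Slc11a1 was most like Psap, encoding a lysosomal activator (0.30 and 0.22), the integrin gene Itgax (0.28 and 0.21) and the chemokine gene Ccl6 (0.23 and 0.21). For Hmox1 they were Cd9, the peroxiredoxin gene Prdx1 and Eif4a1, all between 0.13 and 0.19.

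The wider iron pathway was covered by a list of 102 genes, of which 96 were in the tables and 74 had at least 30 UMIs. Its median log2 ratio of medial over lateral was -0.06, against -0.04 for all genes. 3 of the 74, or 4.05%, were at least 1.2-fold higher in medial cells, against 7.42% of all genes with at least 100 UMIs, and 4, or 5.41%, were as much lower, against 7.49%. With at least 100 UMIs per listed gene too, 1 was as much higher, Isca1, and 3 were as much lower. The interval lay above equality for 3 genes, again 4.05%, against 11.1% of all genes, below it for 20, or 27.0%, against 18.2%, and across it for 51. Centred on the median gene, the split was 9 above and 11 below. No share of all genes is given after centring, so this split is not read as a result about the list. Without centring, the 3 genes with intervals above equality included Isca1, an iron-sulfur cluster carrier, at 29.4 CPM in medial and 17.2 CPM in lateral cells (0.78, 0.60 to 0.96). The others, both under 1.2-fold, were Nfe2l2, which encodes Nrf2, at 306 and 266 CPM (0.20, 0.15 to 0.25), and Trf, at 750 and 654 CPM (0.20, 0.17 to 0.23). Trf is also an oligodendrocyte gene; the other 6 oligodendrocyte markers summed to 71.5 CPM in medial and 71.2 CPM in lateral cells.

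By role, the regulators were near equality, with a median of 0.01 over 10 measured genes. The genes of the regulatory proteins that read the hairpins, Aco1 and Ireb2, stood at 11.1 and 12.4 CPM in medial and 12.02 CPM each in lateral cells, and Fbxl5, whose product removes Ireb2 protein when iron is plentiful, at 33.7 CPM in medial and 36.4 CPM in lateral cells. Of 7 chaperones and turnover genes 2 had intervals below equality: Pcbp2, a chaperone that hands iron to ferritin, at 296 CPM in medial and 322 CPM in lateral cells (-0.12, -0.17 to -0.07), and Cd63, a vesicle tetraspanin with which ferritin can leave cells, at 2195 and 2502 CPM (-0.19, -0.21 to -0.17). The 7 uptake and export partners had a median of 0.00 and only Trf apart from equality by its interval.

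Among genes that build iron into heme and iron-sulfur clusters, more intervals lay below than above equality. Of 21 mitochondrial genes, 8 had intervals below and 1 above equality, among them Iscu, the scaffold of cluster assembly, at 221 CPM in medial and 249 CPM in lateral cells (-0.17, -0.23 to -0.12), and Glrx5, which passes clusters on, at 80.5 and 95.4 CPM (-0.24, -0.33 to -0.16). Of 11 cytosolic assembly genes 5 were below and none above equality, such as Fam96a at 130 CPM in medial and 146 CPM in lateral cells. Heme synthesis had 2 of 10 below, Uros and Tmem14c, and heme handling 3 of 8, Blvra, Slc48a1 and Lrp1, with none above. These counts stand beside the 18.2% of all genes with intervals below equality and 11.1% above, and with few genes per role nothing particular to a role is read from them.

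**Figure D5:**
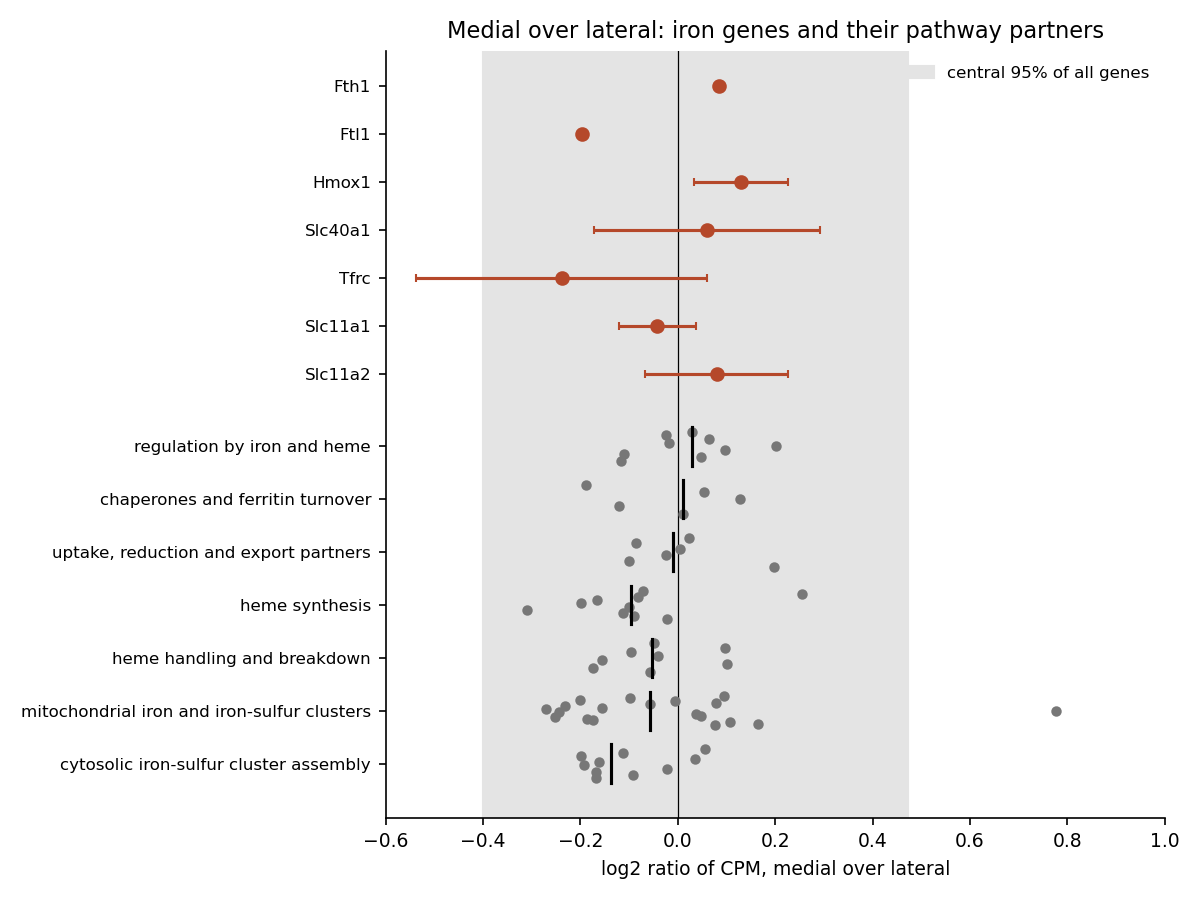
log2 ratio of medial over lateral CPM for the 7 genes (points with 95% intervals for counting error) and for the listed iron pathway genes with at least 300 UMIs by role (grey points, black bar at their median), over a grey band that holds 95% of all genes (-0.40 to 0.47). All 7 genes lie inside the band, and Isca1, at 0.78, is the listed gene outside it.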

How the data were processed

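Values are the authors' deposited whole-number UMI counts per gene and barcode, unfiltered and not normalised (checked: whole numbers, 737280 barcodes in each library). The submitters' processing notes name mm10, STAR and Cell Ranger 2.0.1; no annotation version is stated there. Cells, sums, CPM and clusters were computed here with Python 3.11.15, scipy 1.17.1 and scanpy 1.11.5 (2000 variable genes, 30 principal components, 15 neighbours, Leiden resolution 0.6). 3 barcodes per library exceeded the mitochondrial limit. No doublet caller was run; leaving out the 5% of cells with most UMIs was an alternative. Intervals are exact (conditional binomial for ratios, Poisson for CPM, Clopper-Pearson for shares) and cover counting error only; the ratio code was tested on simulated data. Low barcodes hold 1 to 100 UMIs. Similar genes needed 0.2 UMIs per cell, members 0.5, and 3 were named each; leading genes were the 4 with the highest fold and at least 0.3 UMIs per cell, 1 of which is not reported here; listed genes are given by value from 300 UMIs. The members and lists were chosen with earlier results of these data known.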

Additional observations from a re-analysis of the deposited data

How the results depend on the processing

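No paired analysis was possible because each region has 1 library, so no replicate could be left out either. Of 64 alternative values of the regional log2 ratios, 50 moved by less than their counting interval, 14 moved and none changed sign for a member whose interval excluded equality. Within the 50, the interval of Hmox1 came to include equality in thinned cells (0.19, -0.02 to 0.40) and that of Tfrc to exclude it without the deepest 5% (-0.33, -0.65 to -0.004). Fth1 (0.085) became 0.076 without the 5% of cells with most UMIs, 0.067 with each cell counting alike, 0.12 when centred on the median gene and 0.069 as a mean over clusters. Ftl1 (-0.20) became -0.18 with cells from 5000 UMIs, -0.21 without the deepest 5%, -0.23 in thinned cells, -0.24 with each cell counting alike, -0.16 centred, -0.16 over immediate early ranges, -0.17 over clusters and -0.18 with its copy added (chosen after seeing the data). Slc11a1 (-0.04) became -0.23 over immediate early ranges and -0.19 over clusters. Of the iron list, 7 genes had intervals above equality with cells from 5000 UMIs, 5 in thinned cells and 9 when centred, against 3; 6 had them below in thinned cells and 11 when centred, against 20. In thinned cells 6 genes were 1.2-fold higher and 7 lower, against 3 and 4. With each cell counting alike 8 were lower, and with 100 UMIs per gene 1 was higher. Apart from this last setting, no share of all genes is given for these alternatives, so their counts have no background beside them. The span over clusters at resolutions 0.3 and 1.0 and with 1000 variable genes was 1.52, 1.61 and 1.56 for Fth1 (1.46) and 1.27, 1.87 and 1.45 for Ftl1 (1.54); at 0.3 it was 2.80 for Slc11a1 (3.36) and 1.42 for Slc11a2 (1.76). Of 420 alternative programme ratios, 301 kept within their interval and 112 moved, sign changes of ratios whose main interval included equality among them. The other 7 changed sign or reached 0 though their main interval excluded equality. In thinned cells these were Ftl1 with disease-associated genes in lateral cells (-0.073), Slc40a1 with MHC class II in medial cells (0), and Tfrc with proliferation in medial (-1.26) and lateral cells (0), with Nrf2 targets in medial cells (-0.46) and with lysosome genes in lateral cells (0.14). Within ranges of UMIs per cell it was Fth1 with MHC class II in lateral cells (0.0069). Except for the alternatives that use fewer UMIs by construction, the cause was not tested. Depth limits Tfrc and Slc40a1 most, with 380 and 616 UMIs in all.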
